A study of Zea mays with 9 samples.

Results

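Pyruvate orthophosphate dikinase (PPDK) is encoded in maize by the genes pdk1 and pdk2. Both were taken by identifier, Zm00001d038163 for pdk1 and Zm00001d010321 for pdk2, which makes 2 of the 46430 gene identifiers counted in each library. These names came with the choice of identifiers and could not be checked against a table of gene names. Endosperm dissected at 19 DAP (days after pollination) was compared between mutants of the thk1-iso15 allele, mutants of the thk1-iso17 allele and WT, with 3 libraries per genotype and 9 in all. The mutants are labelled -/- and WT is the inbred B73. All plants were field grown and self-pollinated, and the labels place every genotype in the B73 background. The number of plants or kernels behind a replicate is not in the labels, nor is how often either allele was crossed to B73. The p-values therefore measure the spread between these libraries, and differences of line or of plants cannot be told apart from those of the alleles.

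PPDK interconverts pyruvate, ATP and phosphate with phosphoenolpyruvate, AMP and pyrophosphate. In maize leaves a chloroplast form made from pdk1 supplies phosphoenolpyruvate for carbon fixation, and a shorter cytosolic form is made from the same gene. In cereal endosperm the cytosolic enzyme is abundant during filling, where it is placed between starch synthesis and the supply of carbon skeletons for amino acids of storage protein. The transcription factor opaque2, a regulator of storage protein genes, is known to activate PPDK genes in maize endosperm. Mutants of thk1 (thick aleurone1) form more layers of aleurone, the cells at the surface of the endosperm, than WT does. The gene encodes NOT1, the scaffold of a complex that shortens the poly(A) tails of messenger RNA.

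The total of gene counts ranged from 21871601 to 76651742 per library. Between them pdk1 and pdk2 held 106433 to 400111 counts in a library, so counting error was at most 0.839% of either gene's count and small beside the spread of replicates. Counts were scaled to CPM, counts relative to a common library total, with TMM factors, which correct library totals for differences in composition. Both genes passed the filter on low counts, as did 23529 genes in all. Counts are not per length, so levels are compared between genotypes for 1 gene at a time and not between the genes. A count for pdk1 covers its chloroplast and cytosolic transcripts together. Of all entries in a library, between 16.8% and 27.0% did not align uniquely and are in no gene count. How many of these came from stretches that the 2 dikinase genes share was not tested.

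Transcripts of pdk2 were lower in every mutant library than in every WT library, as were those of 11.7% of all genes tested. The level was 3515, 3859.6 and 3146 CPM in replicates 1, 2 and 3 of thk1-iso15. It was 3353, 3676 and 3256 CPM in replicates 1, 2 and 3 of thk1-iso17, against 5346, 5554 and 6940.2 CPM in those of WT. The highest mutant library, thk1-iso15 replicate 2, lay well under the lowest WT library, and the mutant libraries were closer to each other than the WT libraries were. RNA of whole endosperm does not separate fewer cells of a type from less RNA per cell, and this holds for every level given here.

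In thk1-iso15, pdk2 averaged 3507 ± 357 CPM, against 5947 ± 867 CPM in WT (SD, n = 3 each). Its log2 fold change of -0.76 had an SE of 0.18 (edgeR quasi-likelihood test, adjusted p = 0.0208), which is 0.590 times the WT level with a 95% interval from 0.445 to 0.781. In that comparison 6.82% of all genes tested were called lower at an adjusted p under 0.05, and in 18.5% all 3 thk1-iso15 libraries lay below all 3 WT libraries. The call was lost without WT replicate 3, the library with the highest pdk2 level, where the adjusted p was 0.0724 and the log2 fold change -0.64. It was also lost without thk1-iso15 replicate 1 (edgeR adjusted p = 0.0613) and without thk1-iso15 replicate 2 (edgeR adjusted p = 0.0518), though the log2 fold changes were then -0.76 and -0.84. With libraries scaled by total gene counts alone the log2 fold change was -0.50 (edgeR adjusted p = 0.0998).

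In thk1-iso17, pdk2 fell to 3428 ± 220.1 CPM, against 5947 ± 867 CPM in WT (SD, n = 3 each). Its log2 fold change of -0.79 had an SE of 0.18 (edgeR adjusted p = 0.0189), which is 0.577 times the WT level with a 95% interval from 0.435 to 0.763. Of all genes tested 6.29% were called lower in thk1-iso17, and 17.4% had all 3 thk1-iso17 libraries below all 3 WT libraries. The adjusted p was 0.0696 without WT replicate 3 and 0.0740 without thk1-iso17 replicate 1, with log2 fold changes of -0.67 and -0.78. With total gene counts alone it was 0.156, and the log2 fold change was -0.40. The comparisons of the alleles with WT share the same 3 WT libraries.

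Taking both alleles together, pdk2 stood at 3468 ± 269 CPM in the 6 mutant libraries and at 5947 ± 867 CPM in the 3 WT libraries (SD). Its log2 fold change of -0.78 had an SE of 0.15 (edgeR adjusted p = 0.00696), and the 95% interval of the fold ran from 0.461 to 0.738. It passed without any single library, with adjusted p between 0.00901 and 0.0385. For comparison, 10% of all genes tested were called lower and 11% higher with both alleles together, and 11.7% had no mutant library that reached the lowest WT library. Among the 100 genes with the highest mean CPM, which include both dikinase genes by their counts, 32 were called lower and 9 higher. The median log2 fold change of these 100 genes was -0.26, against 0.023 over all genes tested. In 7.85% of all genes tested the fold change was lower than that of pdk2.

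**Figure D1:**
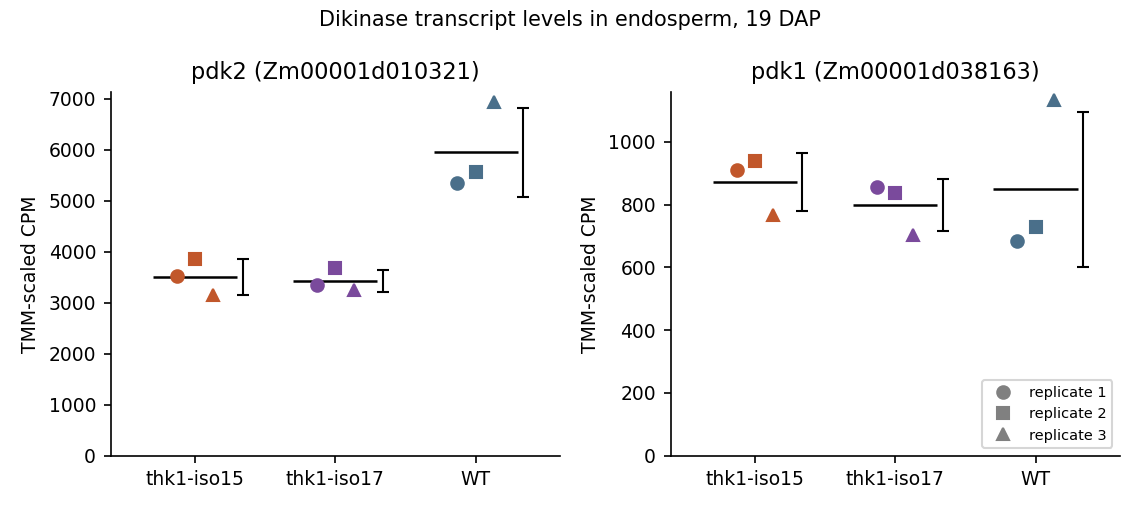
TMM-scaled CPM of pdk2 (left) and pdk1 (right) on linear axes that start at 0, with 1 symbol per library, a line at the mean and a bar of ± 1 SD (n = 3). For pdk2 the 6 mutant libraries lie between 3146 and 3859.6 CPM, below the WT libraries at 5346 to 6940.2 CPM, while for pdk1 the genotypes overlap.

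No change of pdk1 was called in either allele. Its level was 912, 939.8 and 766 CPM in replicates 1, 2 and 3 of thk1-iso15. It was 856, 837 and 704 CPM in those of thk1-iso17, against 684.5, 728 and 1132 CPM in those of WT. The mutant libraries all lay inside the WT range, which is wide because WT replicate 3 stood above all other libraries. That library also held the highest pdk2 level.

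In thk1-iso15, pdk1 averaged 873 ± 93.0 CPM, against 848 ± 247 CPM in WT (SD, n = 3 each). Its log2 fold change of 0.041 had an SE of 0.21 (edgeR adjusted p = 0.914), with a 95% interval of the fold from 0.752 to 1.41. In thk1-iso17 the mean was 799 ± 82.5 CPM, and the log2 fold change from WT was -0.086 (SE 0.21, edgeR adjusted p = 0.812; fold interval 0.689 to 1.29). For both alleles together the values were 836 ± 88.4 CPM in the mutants and 848 ± 247 CPM in WT, with a fitted fold of 0.984 (95% interval 0.751 to 1.29, edgeR adjusted p = 0.939). A higher or a lower pdk1 level of moderate size is within these intervals, but a decrease to the 0.583 times fitted for pdk2 is outside the interval for both alleles together. Without WT replicate 3 the log2 fold change of pdk1 for both alleles together was 0.24 (SE 0.16, edgeR adjusted p = 0.349), so the sign of the pdk1 difference turned without that library.

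**Figure D2:**
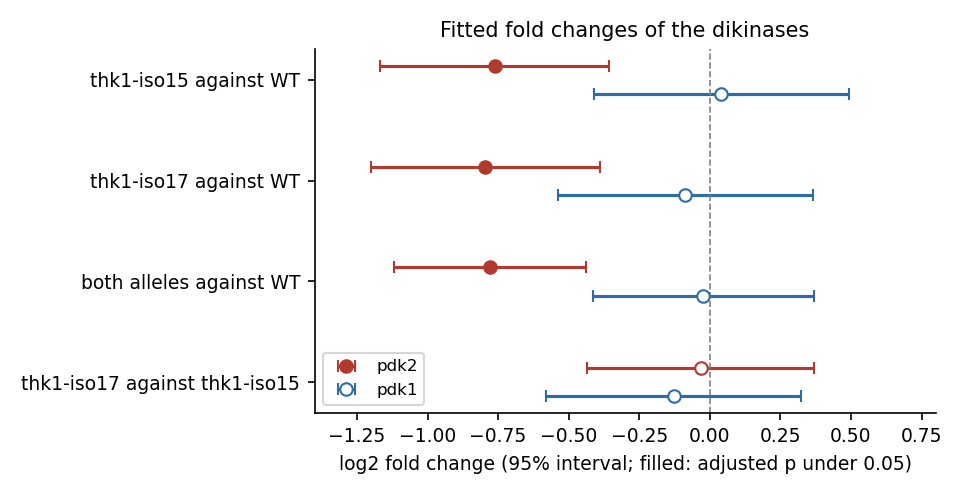
Fitted log2 fold changes of pdk2 and pdk1 (horizontal axis) in each comparison (vertical axis), with 95% intervals from the edgeR model; filled symbols passed an adjusted p of 0.05. The pdk2 values against WT lie between -0.79 and -0.76, and the intervals of pdk1 include 0 in every comparison.

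In these libraries the balance of counts between the 2 genes lay further towards pdk1 in the mutants than in WT. A ratio of counts within a library does not depend on how libraries are scaled, and a factor that multiplies both genes alike cancels in it. Of the counts of both genes, pdk1 held 20.6%, 19.6% and 19.6% in replicates 1, 2 and 3 of thk1-iso15. It held 20.3%, 18.5% and 17.8% in those of thk1-iso17, against 11.4%, 11.6% and 14.0% in those of WT. Each mutant library lay above each WT library. How often the ratio of 2 other tested genes separates the groups in this way was not counted. The 95% Clopper-Pearson interval of a library's share reached at most 0.243 percentage points to either side, for counting error only. As the counts are not per length, these shares are not shares of molecules.

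The share of pdk1 averaged 19.9% ± 0.582 in thk1-iso15, 18.9% ± 1.31 in thk1-iso17 and 12.3% ± 1.48 in WT (SD, n = 3 each). Expressed the other way, a library held 4.02 ± 0.144 pdk2 counts per pdk1 count in thk1-iso15 and 4.31 ± 0.359 in thk1-iso17, against 7.19 ± 0.923 in WT. The log2 ratio of pdk1 to pdk2 was higher by 0.83 in thk1-iso15 than in WT and by 0.73 in thk1-iso17 than in WT. In each of these the two-sided exact permutation p was 0.1, the smallest that 3 libraries against 3 can give (0.133 adjusted over 4 comparisons). With both alleles together the ratio averaged -2.06 ± 0.0995 in the mutants (n = 6) and -2.84 ± 0.193 in WT (n = 3; SD). That difference of 0.78 is a 1.72-fold shift, with a two-sided exact permutation p of 0.0119, the smallest that 6 against 3 can give (0.0476 adjusted over 4 comparisons). It passed only with both alleles pooled into a single group. With the replicate number as a block it did not pass (exact permutation p = 0.037, the smallest the block can give, 0.148 adjusted over 4 comparisons). Without any single library the difference was between 0.72 and 0.89, with adjusted p of 0.0714 to 0.133, as the fewer divisions of the libraries cannot give less than 0.0714.

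**Figure D3:**
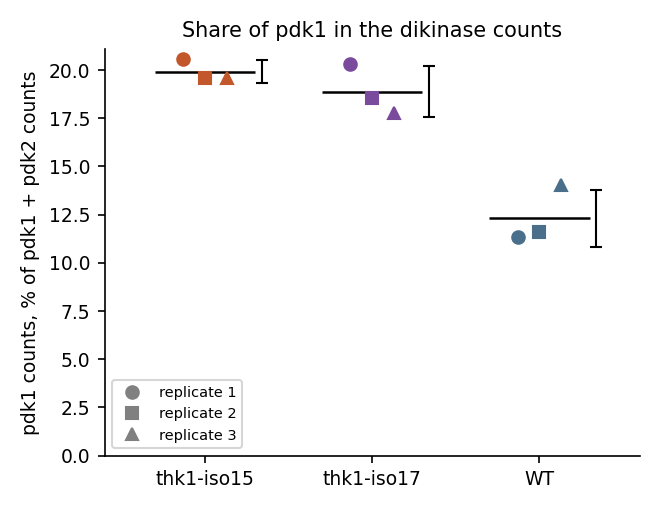
Counts of pdk1 as a percentage of pdk1 plus pdk2 counts (vertical axis, from 0) by genotype, with 1 symbol per library, a line at the mean and a bar of ± 1 SD (n = 3). The mutant libraries lie between 17.8% and 20.6% and the WT libraries between 11.4% and 14.0%.

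The summed level of both genes followed pdk2, which contributes most of the counts. It was 4427, 4799 and 3912 CPM in replicates 1, 2 and 3 of thk1-iso15. It was 4209, 4513 and 3960.1 CPM in those of thk1-iso17, against 6031, 6282 and 8073 CPM in those of WT. With these TMM-scaled values no mutant library reached the lowest WT library, which also held for 11.7% of all genes tested singly. The sum averaged 4303 ± 342 CPM in the mutants (n = 6) and 6795 ± 1113 CPM in WT (n = 3; SD), a log2 difference of -0.65. The two-sided exact permutation test gave p = 0.0119, which is as small as 6 against 3 allows (0.0476 adjusted over 4 comparisons). Per total gene counts the groups overlapped, with the mutants at 3703 to 5006 CPM and WT at 4929.6 to 7473 CPM. The log2 difference was then -0.31 (two-sided exact permutation p = 0.0357, 0.143 adjusted over 4 comparisons), so the call for the sum was lost on that scale. This sum was added after the levels of the single genes had been seen.

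The 2 alleles were not told apart by either gene. Between thk1-iso17 and thk1-iso15 the log2 difference of pdk2 was -0.033 (SE 0.18, edgeR adjusted p = 0.988), and the fold had a 95% interval from 0.740 to 1.29. The log2 difference of pdk1 was -0.13 (SE 0.21, edgeR adjusted p = 0.943), with a fold interval from 0.669 to 1.25. In that comparison 0.111% of all genes tested were called. The log2 ratio of pdk1 to pdk2 differed by -0.097 between thk1-iso17 and thk1-iso15 (two-sided exact permutation p = 0.3).

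The scale of the libraries matters for the size of these changes. TMM factors ranged from 0.946 to 1.21 in the mutants and from 0.785 to 0.926 in WT. Per total gene counts, without these factors, pdk2 was at 2977 to 4026 CPM in the mutants and at 4358 to 6425 CPM in WT, again without overlap. How many of all genes tested lacked overlap on that scale was not counted. On that scale the log2 fold change for both alleles together was -0.45 (edgeR adjusted p = 0.0662) and the call was lost. The median over all genes tested moved with it, to 0.36 per total gene counts from 0.023 with TMM factors. Relative to this median pdk2 was at -0.81 per total gene counts and at -0.80 with TMM factors. A scale factor moves all genes nearly alike, so that likeness is built in and does not bear on the lost call. The log2 fold change of pdk1 was 0.30 per total gene counts and -0.023 with TMM factors.

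**Figure D4:**
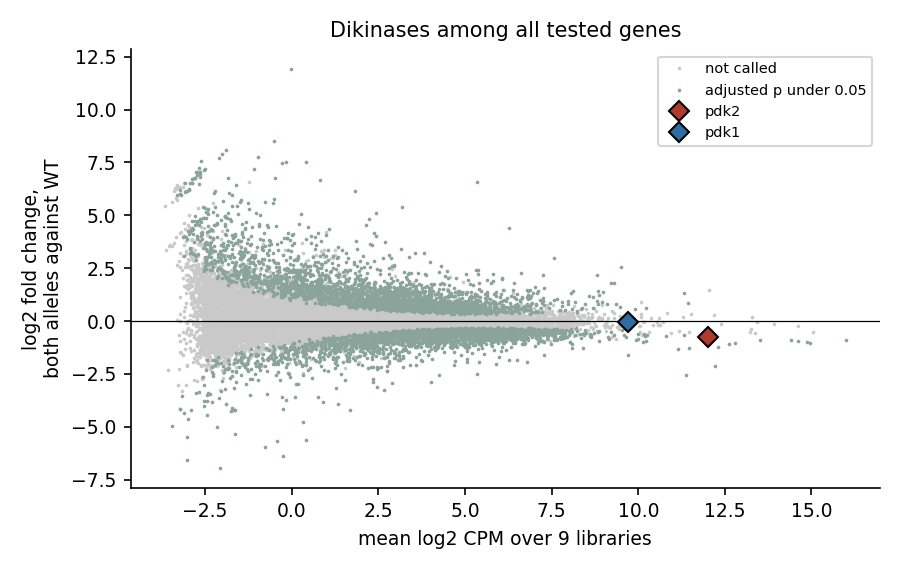
Log2 fold change of both alleles against WT (vertical axis) by mean log2 CPM over 9 libraries (horizontal axis) for all 23529 genes tested, with genes at an adjusted p under 0.05 in darker green. Both dikinases lie among the genes with the highest counts, pdk1 near 0 and pdk2 at -0.78.

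Gene names could not be tied to identifiers, as 0 of 44146 nuclear gene models matched the table of RefSeq gene names at hand. Values of opaque2, of other enzymes that use pyruvate or phosphoenolpyruvate, of starch and storage protein genes, of thk1 itself and of marker genes of endosperm cell types are therefore not given. The levels of the genes that most resembled the dikinases can be described by identifier. Over the 9 libraries, Zm00001d042341 had the pattern most like that of pdk2 (Pearson r of log2 CPM 0.988, Spearman rho 0.983, highest of 23528 genes). It stood at 9.71 ± 0.827 CPM in thk1-iso15 and 9.84 ± 1.26 CPM in thk1-iso17, against 16.1 ± 1.97 CPM in WT (SD, n = 3 each). It fell in both alleles, with log2 fold changes of -0.74 (SE 0.17, edgeR adjusted p = 0.0164) and -0.72 (SE 0.17, edgeR adjusted p = 0.0187). As it was chosen for its likeness to pdk2, these values add no independent evidence.

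The pattern most like that of pdk1 was that of Zm00001d003499 (Pearson r 0.949, Spearman rho 0.867). It had only 17 to 94 counts per library, at 1.08 ± 0.271 CPM in thk1-iso15, 1.002 ± 0.247 CPM in thk1-iso17 and 1.11 ± 0.503 CPM in WT (SD, n = 3 each), and was called in neither allele (edgeR adjusted p = 0.940 and 0.824). Between pdk1 and pdk2 the Pearson r over the 9 libraries was 0.28 and Spearman rho 0.23. By Pearson r, pdk1 was at position 8335 of 23528 among the genes most like pdk2, and pdk2 at position 4349 among those most like pdk1. These correlations are descriptions over libraries that share 3 genotypes and carry no test.

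**Figure D5:**
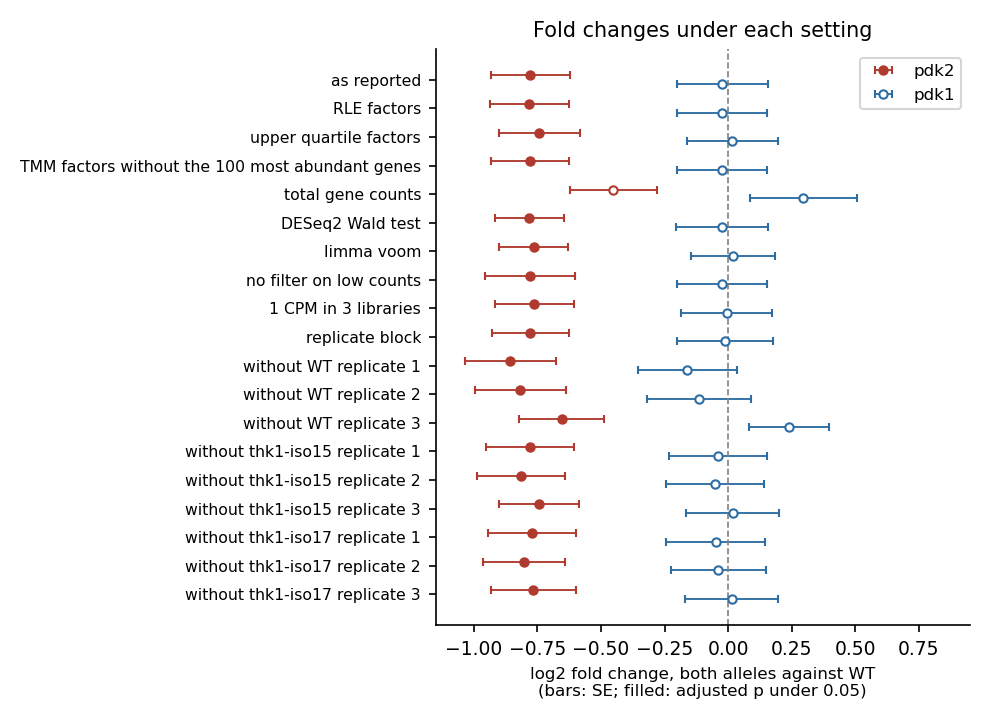
Log2 fold change of pdk2 and pdk1 for both alleles against WT (horizontal axis; bars are ± 1 SE) under each setting of scaling, test and filter and without each library (vertical axis); filled symbols passed an adjusted p of 0.05. The pdk2 values lie between -0.86 and -0.45 and the pdk1 values between -0.16 and 0.30.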

How the data were processed

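Poly(A) RNA was made into TruSeq libraries and read from both ends, per the labels' protocols. The levels are therefore those of poly(A) RNA, and tail lengths are not in these counts. The authors deposited raw counts per gene identifier, 1 table per library; 5 summary lines in each were left out of all totals and tests, and genes held 52.9% to 66.5% of all entries. Per the submitters' processing notes the build was B73 RefGen_v4, and the tools were HTSeq 0.11.1, StringTie 1.3.6, SAMtools 1.9 and HISAT2 2.1.0. Their settings, the annotation and the strand setting are not given in the sources, so reads of near-identical, overlapping or antisense genes remain uncertain.

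In R 4.3.3, edgeR 4.0.16 was run with filterByExpr, TMM factors and 1 quasi-likelihood model (glmQLFit, glmQLFTest) over 3 genotypes and 9 libraries. Calls were made at an adjusted p under 0.05 (Benjamini-Hochberg over all 23529 genes). The standard error is the fold change divided by the root of F. The pipeline was tested on simulated data. The ratio of the 2 genes used 0.5 added to each count and an enumeration of all divisions of the libraries in Python 3.11.15.

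Alternatives were other scalings, DESeq2 1.42.0, voom in limma 3.58.1, other filters, single libraries left out, only the groups compared, and the replicate number as a block. The genes named are the 2 dikinases and, for each, the gene with the highest Pearson r of log2 CPM (prior count 2). Members, lists and tests were chosen with earlier results of these data known. No pathway or marker list could be tied to identifiers, so none is reported.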

Additional observations from a re-analysis of the deposited data

How the results depend on the processing

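The decrease of pdk2 kept its direction under every alternative run against WT. Scaling by total gene counts ended the call, with log2 fold changes of -0.50 in thk1-iso15 (edgeR adjusted p = 0.0998), -0.40 in thk1-iso17 (edgeR adjusted p = 0.156) and -0.45 for both alleles together. Without single libraries pdk2 was at -0.84 to -0.64 in thk1-iso15 and -0.87 to -0.67 in thk1-iso17. Of 9 runs 6 and 7 were called, 3 each keeping all compared libraries. For pdk1, never called, the sign was not stable. The 9 runs gave -0.095 to 0.30 in thk1-iso15, -0.23 to 0.18 in thk1-iso17 and -0.16 to 0.24 for both alleles. The sign also turned with total gene counts, to 0.30 in thk1-iso17 and 0.30 for both alleles, and for both alleles with upper quartile factors (0.017) and voom (0.019). Between thk1-iso17 and thk1-iso15, total gene counts gave 0.0076 for pdk1, 0.10 for pdk2 and 0.097 for the summed level. Leaving out each library there gave -0.10 to 0.043 for pdk2 and -0.13 to 0.021 for the sum. The cause of these turns was not tested. The counts of genes called over all genes, behind the percentages given, ranged without single libraries from 1440 to 4385 in thk1-iso15 (3642 with all), from 1176 to 3944 in thk1-iso17 (3352 with all) and from 2464 to 5876 for both alleles (4943 with all). Total gene counts gave 6053 in thk1-iso17. Between the alleles the 26 calls became 197 by DESeq2, 75 with no filter on low counts, 17 with only these groups, and 21 to 72 without single libraries. Deviations of same-numbered libraries had correlations of -0.11 to 0.24 (9 pairs, 3 over 0.1), the others -0.23 to 0.12. With the replicate number as a block, pdk2 had log2 fold changes of -0.76, -0.79 and -0.78 in thk1-iso15, in thk1-iso17 and for both alleles (edgeR adjusted p = 0.0239, 0.0215 and 0.00888). The block changed no edgeR call of either dikinase gene, while the genes called over all genes for both alleles rose from 4943 to 5373. For both alleles the block leaves the ratio difference of 0.78 and the difference of the sum of -0.65 as they are by construction. Their exact permutation p under the block was 0.037, the smallest it can give, and 0.148 adjusted over 4 comparisons, so neither passed. Without single libraries these differences were 0.72 to 0.89 and -0.73 to -0.52, and none passed the adjustment, which the smaller design cannot. The difference of the sum for both alleles also missed it with total gene counts (-0.31).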

Other observations

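Identifiers with neighbouring numbers were examined as counts, since the order of numbers is not a mapped interval. Of the 20 tested identifiers nearest to pdk2, 10 on each side, 5 were called lower and 0 higher for both alleles together (edgeR adjusted p under 0.05). Of the 20 nearest to pdk1, 4 were lower and 1 was higher, where 10% of all genes tested were lower and 11% higher. The median log2 fold change was -0.093 around pdk2 and -0.21 around pdk1, against 0.023 over all genes tested. Whether the level of either dikinase gene is tied to its neighbours was not tested.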
